A study of Mus musculus with 19 samples.

Results

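The Cyp2c genes of the mouse encode cytochrome P450 enzymes of the endoplasmic reticulum, and 10 of them (Cyp2c29, Cyp2c37, Cyp2c38, Cyp2c39, Cyp2c40, Cyp2c44, Cyp2c50, Cyp2c54, Cyp2c55 and Cyp2c70) were followed by gene symbol in the RNA-seq table of livers with and without the RNA-binding protein RALY. They are 10 of 24054 genes in that table, which holds 16 symbols that begin with Cyp2c. The mice were C57BL/6 animals fed chow that carried Raly alleles with loxP sites around exons 3 and 4 (Raly flox/flox), males unless stated otherwise by the methods, and their age is not given in the sources used here. L-RalyKO mice (n = 3) received an adeno-associated virus of serotype AAV8 with Cre recombinase under the TBG promoter, which is active in hepatocytes, and controls (n = 3), which the labels call wild type, received the same virus with GFP, so both groups carried a virus. Livers were taken 4 weeks after injection, and the comparison asks which transcripts differ once RALY is removed from hepatocytes. Cells of the liver other than hepatocytes are not expected to express this Cre, and the liver was sequenced whole, so that fewer cells of a type and less RNA per cell cannot be told apart. The chromatin libraries of the series were not used here.

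Cytochromes P450 use a haem iron, held by a cysteine, and electrons passed on by NADPH-cytochrome P450 reductase to insert an oxygen atom into their substrates. The Cyp2c enzymes of liver oxidise drugs and steroids, and several of them turn arachidonic acid, a polyunsaturated fatty acid, into epoxides or hydroxy acids that act as signals. Cyp2c70 stands apart in function, since it makes muricholic acids, bile acids typical of mice. The nuclear receptors CAR (Nr1i3) and PXR (Nr1i2), which sense foreign compounds, and the hepatocyte factor HNF4A are known regulators of genes of this family.

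Values are reads of a gene scaled to the effective library size (total reads times a scaling factor) in the manner of CPM, without regard to gene length unless a level per kilobase is stated. The 6 livers had between 28302983 and 38052705 reads, and 3 reads correspond to a value between 0.0789 and 0.105. Raly itself was at 50.1, 48.6 and 46.8 in controls 1 to 3 and at 6.34, 6.61 and 7.39 in L-RalyKO livers 1 to 3 (log2 fold change -2.67, adjusted p = 6.92e-07, limma). Transcripts of Y-linked genes were present in all 6 livers. A mean value of 1 or more was reached by 11580 genes, of which 758 passed an adjusted p of 0.05 in limma, 389 of them higher and 369 lower in L-RalyKO. The groups lay apart on the first principal component, which took 50.7% of the variance. Control 1 was the liver least like its group. The chi-square per degree of freedom between its reads and those of controls 2 and 3 was 71.1 and 84.3. Other pairs within a group had between 12.6 and 27.4. With control 1 left out limma called 368 genes, and with L-RalyKO 1 left out 335. The labels number 3 livers in each group, the study describes its controls as littermates, and no source ties a liver of one group to a liver of the other.

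All but one of the members lie side by side on chromosome 19. In the NCBIM37 (mm9) annotation, 14 Cyp2c genes of the table, 9 of them members, span chr19:39081509-40261823, a stretch of 1180 kb, and Cyp2c44 lies apart, 3.82 Mb further on, at chr19:44079512-44103737 on the minus strand. The order is Cyp2c55 (plus strand, chr19:39081509-39117183), Cyp2c29 (plus, chr19:39315441-39405189), Cyp2c38 (minus, chr19:39464046-39537565), Cyp2c39 (plus, chr19:39585352-39643019), Cyp2c40 (minus, chr19:39841561-39887304), Cyp2c37 (plus, chr19:40066909-40086738), Cyp2c54 (minus, chr19:40112431-40148301), Cyp2c50 (plus, chr19:40164178-40188440) and Cyp2c70 (minus, chr19:40227843-40261823). The transcript used for each gene has 9 exons. Values below are sums of reads over a gene and do not tell its exons apart.

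How alike the members are shows in the coding stretch for the loop that holds the haem iron. It is printed below 5′ to 3′ from the NCBIM37 transcripts, with capitals at each base unlike Cyp2c29, because likeness between copies bears on how well reads can be assigned to 1 gene. The stretch has 60 bases and covers coding bases 1267 to 1326, except 1264 to 1323 in Cyp2c70 and 1279 to 1338 in Cyp2c44.
Cyp2c29: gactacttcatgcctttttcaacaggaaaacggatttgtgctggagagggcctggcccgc
Cyp2c39: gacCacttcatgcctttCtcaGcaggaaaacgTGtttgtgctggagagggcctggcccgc
Cyp2c38: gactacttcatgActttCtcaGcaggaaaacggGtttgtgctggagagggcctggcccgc
Cyp2c37: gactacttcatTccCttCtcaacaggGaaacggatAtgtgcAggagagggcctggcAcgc
Cyp2c50: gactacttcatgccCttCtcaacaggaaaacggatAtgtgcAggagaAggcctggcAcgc
Cyp2c54: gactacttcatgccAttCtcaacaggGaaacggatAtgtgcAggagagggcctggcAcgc
Cyp2c40: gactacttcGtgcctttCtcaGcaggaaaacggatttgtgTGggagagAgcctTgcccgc
Cyp2c55: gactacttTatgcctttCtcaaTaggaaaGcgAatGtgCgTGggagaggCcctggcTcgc
Cyp2c70: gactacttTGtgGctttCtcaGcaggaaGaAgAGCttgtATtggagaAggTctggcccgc
Cyp2c44: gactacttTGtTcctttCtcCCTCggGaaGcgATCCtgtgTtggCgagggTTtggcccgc

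Cyp2c38 and Cyp2c39 differed from Cyp2c29 at 4 and 5 of these bases, Cyp2c50 and Cyp2c54 at 6 each, Cyp2c37 and Cyp2c40 at 7 each, Cyp2c55 at 11, Cyp2c70 at 14 and Cyp2c44 at 18. Cyp2c37 was 96.1% identical to Cyp2c50, Cyp2c54 95.2% to Cyp2c50, Cyp2c38 94.2% to Cyp2c39 and Cyp2c40 98.1% to Cyp2c68, a neighbour that is no member. The closest relatives of Cyp2c55, Cyp2c70 and Cyp2c44 within the family were at 77.5%, 69.5% and 66.5%. The genes thus form blocks of close copies that are also neighbours on the chromosome.

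The methods give paired reads of 150 bases, and a read that falls in a stretch present in another gene cannot be placed by itself. With words of that length, 22.9% of the words of Cyp2c40 also occurred in another gene, 3.02% of those of Cyp2c54, 2.97% of Cyp2c50 and 0.273% of Cyp2c37, and none of the other members. Shorter words of 50 bases, a stricter measure, gave 64.5% for Cyp2c40, 29.8% for Cyp2c50, 28.3% for Cyp2c37, 25.0% for Cyp2c54, 11.4% for Cyp2c39, 7.45% for Cyp2c38 and 0.476% for Cyp2c29. None of the 50-base words of Cyp2c44, Cyp2c55 and Cyp2c70 occurred in another gene. The value of Cyp2c40 is the most uncertain for this reason, and those of Cyp2c37, Cyp2c50 and Cyp2c54 are uncertain to a degree that depends on the word length. The handling of reads with several positions is not given in the sources used here.

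**Figure D1:**
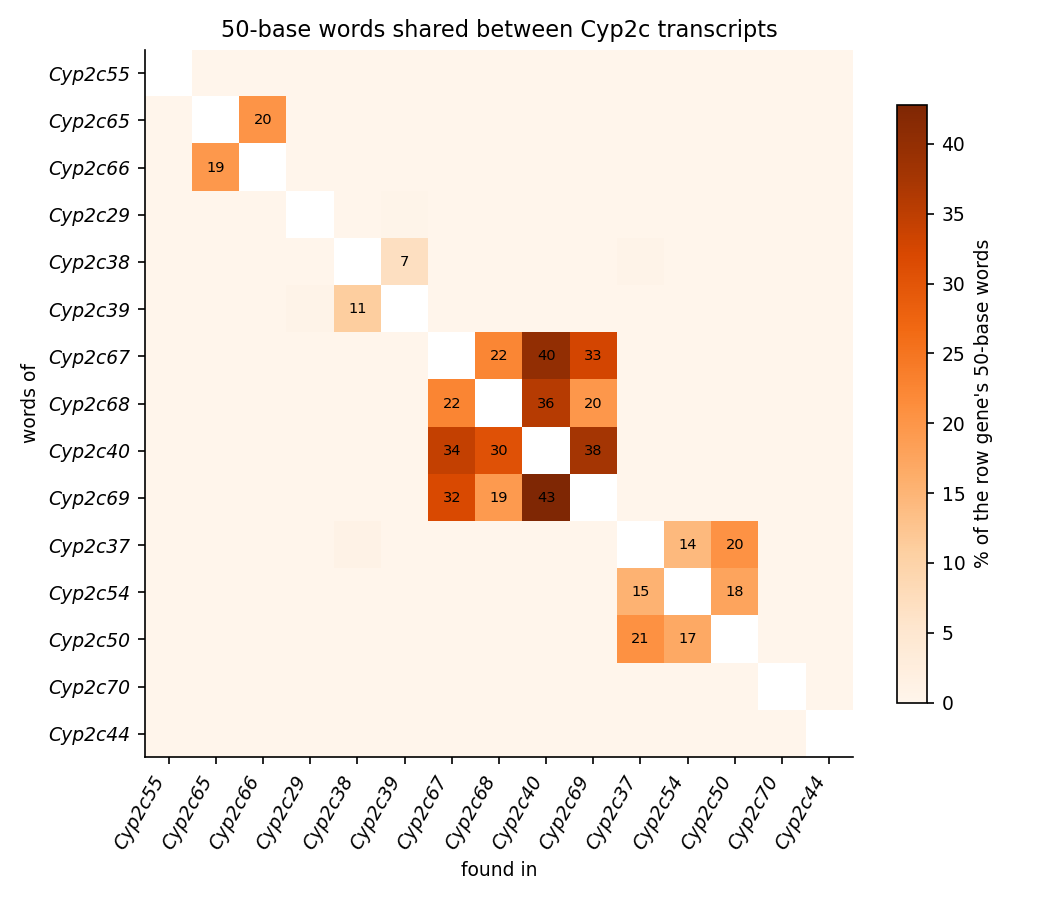
Percent of the 50-base words of each Cyp2c gene (rows, in chromosomal order) that also occur in each other Cyp2c gene (columns), with numbers for shares of at least 1% and the diagonal left blank. Shares of at least 1% lie within blocks of neighbours, and Cyp2c55, Cyp2c70 and Cyp2c44 share no such word.

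The promoter sequences are shown because most members hold the same letters close upstream of their start. RefSeq sequences of GRCm38.p6, from 250 bases before to 50 after each start, were found for 8 of the 10 members, and Cyp2c44 and Cyp2c54 had no entry in that table. CAAAGTNNA, a pattern that includes CAAAGTCCA, letters that HNF4A is known to prefer, was picked after the sequences had been looked at. On either strand it occurred in 7 of the 8 member genes, all but Cyp2c55, against 4.21% of 32851 promoters of the same length. CAAAGTCCA, which overlaps it, occurred in Cyp2c40 and Cyp2c70, against 0.475% of promoters. Below is 1 window of 49 bases per gene, 5′ to 3′ on the gene's strand, with the match in capitals and GRCm38.p6 coordinates. The matches printed start 109 bases before the start of Cyp2c29, 86 for Cyp2c39, 111 for Cyp2c38, 116 for Cyp2c37, 61 for Cyp2c50, 45 for Cyp2c40 and 64 for Cyp2c70.
Cyp2c29, chr19:39286956-39287004 (+): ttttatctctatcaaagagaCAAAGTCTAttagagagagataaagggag
Cyp2c39, chr19:39510716-39510764 (+): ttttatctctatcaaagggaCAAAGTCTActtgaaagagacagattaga
Cyp2c38, chr19:39463158-39463206 (-): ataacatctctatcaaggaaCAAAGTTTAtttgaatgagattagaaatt
Cyp2c37, chr19:39992288-39992336 (+): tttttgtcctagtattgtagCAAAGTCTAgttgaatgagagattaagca
Cyp2c50, chr19:40089598-40089646 (+): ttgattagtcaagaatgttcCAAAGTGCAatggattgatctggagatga
Cyp2c40, chr19:39812831-39812879 (-): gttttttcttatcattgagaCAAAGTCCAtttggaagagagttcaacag
Cyp2c70, chr19:40187322-40187370 (-): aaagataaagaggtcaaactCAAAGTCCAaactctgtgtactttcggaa

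Cyp2c29, Cyp2c39 and Cyp2c37 share the same match, and the bases just before it are nearly the same in Cyp2c29 and Cyp2c39, while those after it differ more. Cyp2c39 has a second start in that table, further from the gene, with the same match. Cyp2c29, Cyp2c37 and Cyp2c70 each have a second match, whose window is not among those above. That of Cyp2c37, 63 bases before its start, is CAAAGTGCA as in Cyp2c50, with nearly the same bases before it. Genes of this family arose by duplication, so their matches are not separate observations. Genes with the pattern lie on both sides of the changes described below, Cyp2c38 and Cyp2c37 among the lower and Cyp2c70 and Cyp2c40 among those with positive values. A match describes letters and is not evidence of binding.

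The 250 bases before the start are printed whole for 3 of the 4 members that passed the test in these livers. Capitals mark CAAAGTNNA and CCAAT, the box of the factor NFY, on either strand (ATTGG is CCAAT read from the opposite strand).
Cyp2c37, chr19:39992174-39992423 (+): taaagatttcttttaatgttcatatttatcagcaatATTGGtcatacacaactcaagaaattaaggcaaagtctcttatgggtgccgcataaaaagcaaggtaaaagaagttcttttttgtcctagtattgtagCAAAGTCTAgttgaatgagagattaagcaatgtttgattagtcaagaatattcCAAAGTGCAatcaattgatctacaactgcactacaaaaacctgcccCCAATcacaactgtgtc
Cyp2c38, chr19:39463076-39463325 (-): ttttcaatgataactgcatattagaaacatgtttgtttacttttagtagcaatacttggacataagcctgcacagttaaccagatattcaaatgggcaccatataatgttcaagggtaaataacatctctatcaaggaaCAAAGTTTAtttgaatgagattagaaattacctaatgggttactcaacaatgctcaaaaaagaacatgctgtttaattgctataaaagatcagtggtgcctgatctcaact
Cyp2c55, chr19:39006769-39007018 (+): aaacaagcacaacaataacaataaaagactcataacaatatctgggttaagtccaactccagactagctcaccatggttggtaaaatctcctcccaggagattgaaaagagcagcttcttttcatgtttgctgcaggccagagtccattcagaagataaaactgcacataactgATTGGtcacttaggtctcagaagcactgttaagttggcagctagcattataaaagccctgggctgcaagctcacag

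CCAAT occurred in the windows of Cyp2c37, Cyp2c50 and Cyp2c55, against 37.4% of all promoters. TTCNNNGAA, a pattern of STAT factors, which relay growth hormone in liver, was found in none of the 8, against 8.30% of all promoters.

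In these livers 2 members rose and 2 fell. Cyp2c44 and Cyp2c55 were higher in L-RalyKO, and Cyp2c38 and Cyp2c37 were lower. These are 4 of 10 members at an adjusted p under 0.05 in limma, where 6.55% of all tested genes passed (3.36% higher and 3.19% lower). EdgeR on the reads called 2 members higher and 1 lower, against 3.39% and 3.38% of all tested genes, and DESeq2 3 higher and 2 lower, against 4.67% and 4.72%. All 10 members had passed the minimum mean value. The values of the groups did not overlap for 5 members, 2 higher and 3 lower, against 28.1% of all genes tested (14.4% higher and 13.7% lower). The members had no common direction. Log2 fold changes were positive for 4 and negative for 6, from -0.81 to 0.59, with a median of -0.15 where the median over all tested genes was 0.00. Regardless of sign their median size was 0.36 on the log2 scale, against 0.095 over all tested genes. At an unadjusted p under 0.05 there were 8 of 10 members, 4 higher and 4 lower, against 22.7% of all tested genes (11.8% higher and 10.9% lower).

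**Figure D2:**
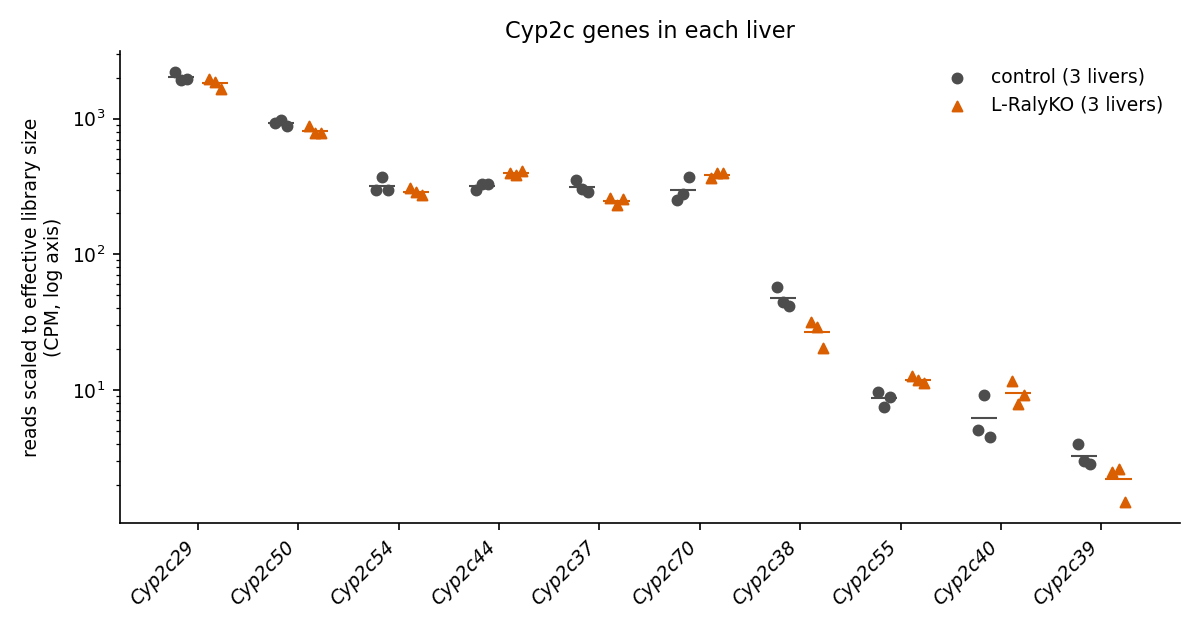
Value of each Cyp2c member in each liver, in CPM of the effective library size on a log axis, for 3 control livers (circles) and 3 L-RalyKO livers (triangles), with a line at each mean. Members run from Cyp2c29, between 1644 and 2197, down to Cyp2c39, between 1.5 and 4.02, and the groups lie apart for Cyp2c37, Cyp2c38, Cyp2c39, Cyp2c44 and Cyp2c55.

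Cyp2c38, an epoxygenase of arachidonic acid, had the largest fall among the members. It was at 57.2, 44.4 and 41.3 in controls 1 to 3 and at 31.4, 29.0 and 20.2 in L-RalyKO livers 1 to 3. Every L-RalyKO liver was below every control, and the highest control was the first. The means were 47.6 ± 8.44 and 26.9 ± 5.88 (SD, n = 3 each), so L-RalyKO stood at 56.4% of control (log2 fold change -0.81, SE 0.166, 95% interval -1.19 to -0.43, adjusted p = 0.0257, limma). The call rested on single livers and on the tool. Without control 1 the log2 fold change was -0.68 and the adjusted p 0.0780 in limma, without control 2 -0.86 and 0.0543, and without L-RalyKO 2 -0.88 and 0.0531. EdgeR on the reads gave an adjusted p of 0.0831, and over all 16 alternatives it ran from 1.89e-06 to 0.0831.

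Cyp2c37, which makes a hydroxy acid from arachidonic acid, had values of 351, 303 and 288 in controls and of 258, 229 and 253 in L-RalyKO. The lowest control was above the highest L-RalyKO liver, and again the first control was the highest. The mean fell from 314 ± 32.7 to 247 ± 15.6 (SD, n = 3 each), or to 78.6% of control (log2 fold change -0.34, SE 0.0797, 95% interval -0.53 to -0.16, adjusted p = 0.0410, limma). This call held in 9 of 16 alternatives, for a gene with 28.3% of its 50-base words, and 0.273% of its 150-base words, in another gene. It was lost without each liver but control 3, with adjusted p values in limma of 0.0918 without control 1, 0.0734 without control 2, 0.0816 without L-RalyKO 1, 0.118 without L-RalyKO 2 and 0.0805 without L-RalyKO 3.

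Cyp2c44, an epoxygenase that is a distant relative of the others and sits outside the cluster, rose. Controls were at 299, 327 and 330, and L-RalyKO livers at 398, 387 and 409. The groups lay well apart, and the livers within each group were close together. The means were 319 ± 17 and 398 ± 10.9 (SD, n = 3 each), 125% of control (log2 fold change 0.32, SE 0.0542, 95% interval 0.20 to 0.44, adjusted p = 0.0123, limma). Cyp2c44 was the steadiest of the 4 calls and held in 15 of 16 alternatives, the exception being the fit without L-RalyKO 1 (log2 fold change 0.32, adjusted p = 0.0519, limma).

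Cyp2c55, a gene best known from the large intestine that can be induced in liver through CAR and PXR, was low in both groups, with 215 to 438 reads per liver. It was at 9.63, 7.54 and 8.84 in controls and at 12.7, 11.9 and 11.2 in L-RalyKO. Every L-RalyKO liver was above every control. The means were 8.67 ± 1.05 and 11.9 ± 0.792 (SD, n = 3 each), 138% of control (log2 fold change 0.42, SE 0.0950, 95% interval 0.21 to 0.64, adjusted p = 0.0365, limma). The call held in 9 of 16 alternatives and was lost without each liver but control 1, with adjusted p values in limma of 0.0764 without control 2, 0.0575 without control 3, 0.123 without L-RalyKO 1, 0.0956 without L-RalyKO 2 and 0.0582 without L-RalyKO 3.

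Cyp2c70, the muricholic acid enzyme, was at 250, 279 and 369 in controls and at 363, 399 and 396 in L-RalyKO. Control 3 reached the range of the L-RalyKO livers, while the other two controls lay below it. The means were 299 ± 62.3 and 386 ± 20.2 (SD, n = 3 each), and the difference did not pass the test (log2 fold change 0.38, SE 0.125, 95% interval 0.10 to 0.67, adjusted p = 0.110, limma). Without control 3 the log2 fold change was 0.54 and the adjusted p 0.00475 in limma, and DESeq2 on all 6 livers gave 0.0237. Over the 16 alternatives the adjusted p ran from 0.00475 to 0.273.

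Cyp2c29, the most abundant member and an epoxygenase that is a classical target of CAR, was at 2197, 1934 and 1945 in controls and at 1968, 1873 and 1644 in L-RalyKO. L-RalyKO 1 lay within the control range and the other two L-RalyKO livers were below it. Its means of 2026 ± 148 and 1828 ± 166 (SD, n = 3 each) differed without passing the test (log2 fold change -0.15, SE 0.0855, adjusted p = 0.346, limma). The 95% interval, -0.34 to 0.05 on the log2 scale, leaves room for a fall but not for one as large as that estimated for Cyp2c38. With 55167 to 73701 reads per liver, counting error was small beside the spread between mice.

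Cyp2c50 and Cyp2c54, epoxygenases of the same block as Cyp2c37, had smaller negative values. Cyp2c50 was at 931, 971 and 875 in controls and at 883, 785 and 782 in L-RalyKO (log2 fold change -0.18, SE 0.0675, 95% interval -0.34 to -0.03, adjusted p = 0.154, limma). Cyp2c54 was at 296, 369 and 295 in controls and at 308, 285 and 273 in L-RalyKO (log2 fold change -0.14, SE 0.0902, 95% interval -0.35 to 0.06, adjusted p = 0.397, limma). In both genes 1 or more L-RalyKO livers lay within the control range, and neither passed the test under any alternative.

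Cyp2c39 and Cyp2c40 were the 2 lowest members. Cyp2c39, known as an oxidase of retinoic acid, was at 4.02, 2.98 and 2.84 in controls and at 2.50, 2.61 and 1.5 in L-RalyKO, from 57 to 135 reads per liver. Its groups did not overlap, with L-RalyKO below, but the test was not passed (log2 fold change -0.43, SE 0.167, 95% interval -0.81 to -0.05, adjusted p = 0.171, limma). On the log2(value + 1) scale the change of so low a gene is understated, and its L-RalyKO mean was 67.2% of control.

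Cyp2c40, an arachidonic acid hydroxylase, was at 5.10, 9.12 and 4.46 in controls and at 11.6, 7.89 and 9.21 in L-RalyKO. Control 2 was within the L-RalyKO range and the other two controls were below it. The difference did not pass (log2 fold change 0.59, SE 0.222, 95% interval 0.08 to 1.09, adjusted p = 0.159, limma), and without control 2 it did (0.86, adjusted p = 0.0225, limma). Control 2 was also the highest control for the neighbours that share its words, Cyp2c67 (241, 336 and 255), Cyp2c68 (111, 141 and 118) and Cyp2c69 (0.417, 1.79 and 0.351). Whether shared reads carry Cyp2c40 along with them was not tested.

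Among the 6 other Cyp2c symbols, Cyp2c67 and Cyp2c68 passed the minimum mean value. Cyp2c67 was at 393, 362 and 321 in L-RalyKO (log2 fold change 0.38, adjusted p = 0.108, limma) and Cyp2c68 at 170, 151 and 137 (log2 fold change 0.31, adjusted p = 0.111, limma), neither of them past the test. Cyp2c69 lay between 0.351 and 1.79, Cyp2c53-ps between 0.456 and 0.789, Cyp2c65 at 3 reads or fewer in every liver, and Cyp2c66 had no read in any. The deposited table thus held an expressed family of 12 genes, the members and these 2.

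**Figure D3:**
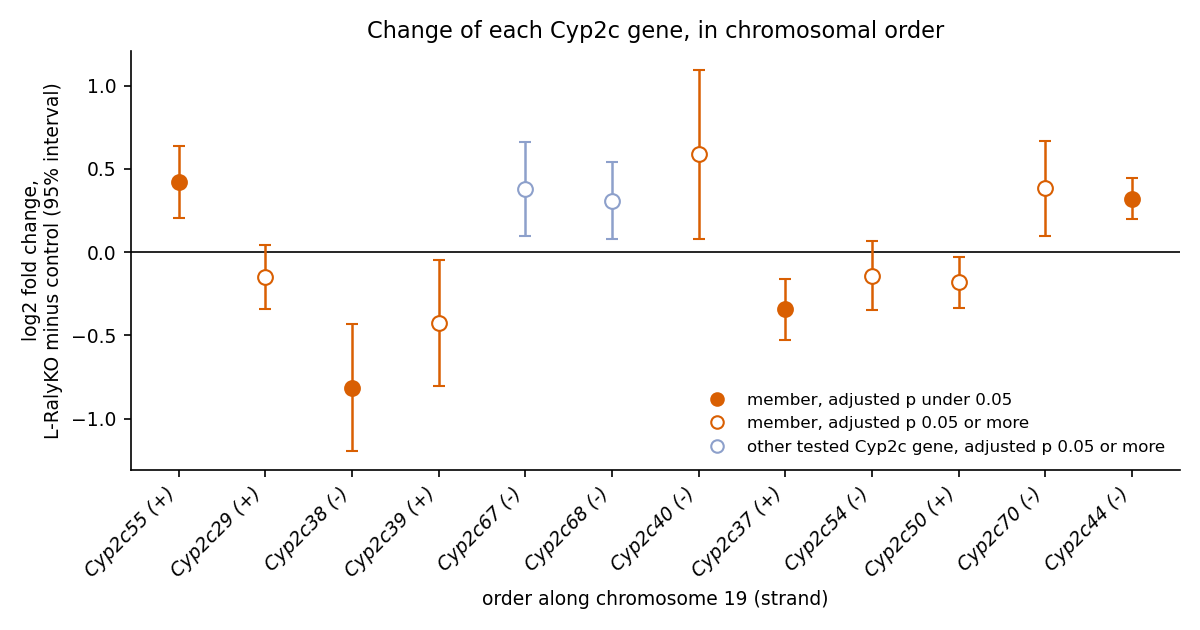
Log2 fold change of each tested Cyp2c gene (L-RalyKO minus control, limma on log2(value + 1)) with its 95% interval, in order along chromosome 19 with the strand in brackets. Filled points are members at an adjusted p under 0.05, namely Cyp2c55 and Cyp2c44 above 0 and Cyp2c38 and Cyp2c37 below it, and neighbouring genes share their sign in blocks.

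Laid out along the chromosome, the signs of the estimates changed from block to block. Cyp2c55 at one end was positive. Cyp2c29, Cyp2c38 and Cyp2c39 were negative at -0.15, -0.81 and -0.43, and Cyp2c67, Cyp2c68 and Cyp2c40 positive at 0.38, 0.31 and 0.59. Cyp2c37, Cyp2c54 and Cyp2c50 were negative at -0.34, -0.14 and -0.18, and Cyp2c70 and the distant Cyp2c44 positive at 0.38 and 0.32. Most of these single values did not pass the test. Shared sequence follows these blocks in part. Cyp2c40 shared 34.4% and 30.5% of its 50-base words with Cyp2c67 and Cyp2c68, Cyp2c37 20.4% and 14.3% with Cyp2c50 and Cyp2c54, and Cyp2c39 11.0% with Cyp2c38. Cyp2c29 shared 0.106% and 0.476% with Cyp2c38 and Cyp2c39, and Cyp2c70 and Cyp2c44 shared none. The part of shared reads in this pattern was not tested. The 3 genes without any shared 50-base word (Cyp2c44, Cyp2c55 and Cyp2c70) all had positive values. Cyp2c29, with 0.476% of its words shared, and Cyp2c38, with 7.45%, had negative ones. The pattern was noticed in these values and was not tested. In none of the 159 fits of a member under an alternative did the sign turn.

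Across the 6 livers the log2 values of Cyp2c29 and Cyp2c39 had a Pearson r of 0.97, and those of Cyp2c38 and Cyp2c39 one of 0.96. Cyp2c38 and Cyp2c44 ran in opposite directions with an r of -0.95. These are descriptions over 6 livers of 2 groups, so a shared difference between groups enters each of them. Outside the family, the genes most like Cyp2c29 over the 6 livers were Ddx31 (Pearson r 0.994), Ccl25 (0.993), Srr (0.989), Akap1 (0.988) and Hspa14 (0.986), the highest among tested genes, and none of them passed the test between groups. With 6 livers, high values of r are easily met among so many genes.

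Levels can be compared between members only per kilobase of transcript. On that scale the control means were 1160 ± 85.0 for Cyp2c29, 511 ± 26.6 for Cyp2c50, 181 ± 23.8 for Cyp2c54, 174 ± 36.3 for Cyp2c70, 172 ± 17.9 for Cyp2c37 and 162 ± 8.66 for Cyp2c44 (SD, n = 3 each). Cyp2c38 followed at 16.6 ± 2.94, then Cyp2c55 at 4.35 ± 0.529, Cyp2c40 at 3.46 ± 1.40 and Cyp2c39 at 1.81 ± 0.356 (SD, n = 3 each). Neighbours in this order lay apart in the controls, with the exception of Cyp2c54 and Cyp2c70, Cyp2c70 and Cyp2c37, Cyp2c37 and Cyp2c44, and Cyp2c55 and Cyp2c40, which overlapped.

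In L-RalyKO these mid-level genes came apart. Per kilobase, Cyp2c70 was at 225 ± 11.8, Cyp2c44 at 203 ± 5.55, Cyp2c54 at 163 ± 10.2 and Cyp2c37 at 135 ± 8.54 (SD, n = 3 each). Cyp2c70 lay above Cyp2c54 and above Cyp2c37 in all L-RalyKO livers, and Cyp2c44 lay above Cyp2c37. Cyp2c44, sixth in the controls, had a mean above those of Cyp2c54 and Cyp2c37. Cyp2c29 and Cyp2c50 kept the first and second place, and Cyp2c55 and Cyp2c40 overlapped here too.

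As shares of the members' summed level per kilobase, Cyp2c29 took 48.6% ± 2.32 in controls and 46.6% ± 1.94 in L-RalyKO (SD, n = 3 each). Cyp2c50 took 21.4% ± 1.02 and 20.1% ± 0.663, and Cyp2c37 7.21% ± 0.546 and 6.04% ± 0.476 (SD, n = 3 each). Cyp2c70 went from 7.34% ± 1.71 to 10.0% ± 1.01, and Cyp2c44 from 6.81% ± 0.542 to 9.05% ± 0.660 (SD, n = 3 each). The same 2 genes thus led the family in both groups, and the share of Cyp2c44 was larger in every L-RalyKO liver than in any control. That of Cyp2c70 overlapped, at 9.24% in control 3 and 8.91% in L-RalyKO 1. Shares of 1 whole are tied to each other and were not tested.

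**Figure D4:**
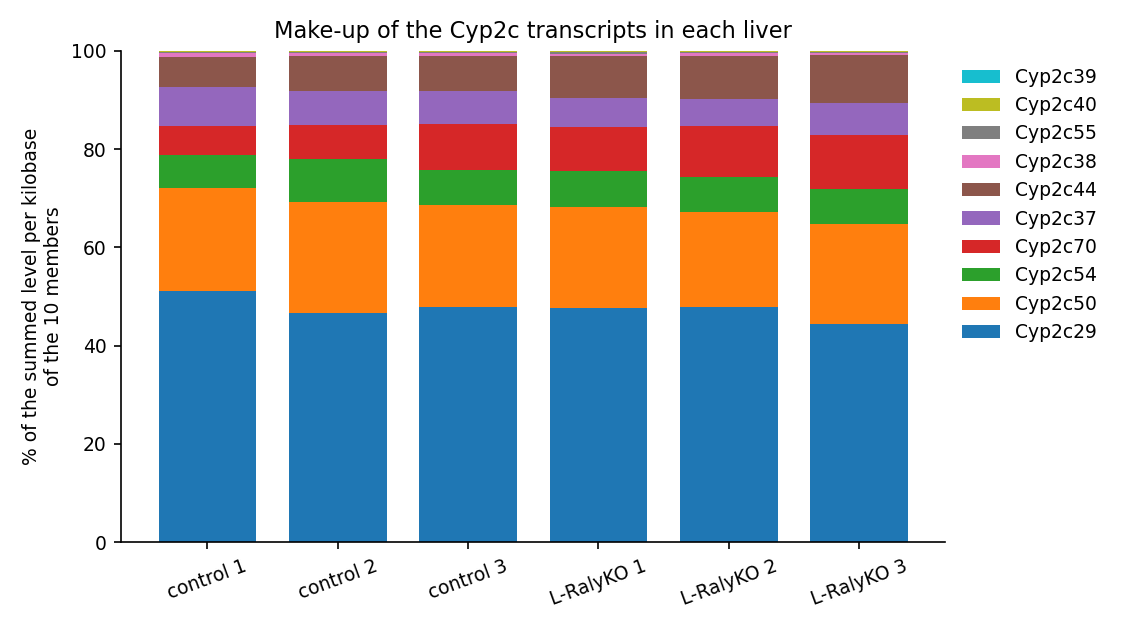
Share of each member in the summed level per kilobase of the 10 members, in percent, for each of 3 control and 3 L-RalyKO livers. Cyp2c29 and Cyp2c50 make up most of each bar, and the segment of Cyp2c44 is larger in the L-RalyKO livers, at a mean of 9.05% against 6.81%.

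Ratios of a member to another in the same liver do not depend on how libraries were scaled, and the pairs given here were picked after their values were seen. Cyp2c38 was at 2.61%, 2.29% and 2.12% of Cyp2c29 in controls and at 1.60%, 1.55% and 1.23% in L-RalyKO. Cyp2c44 was at 13.6%, 16.9% and 17% of Cyp2c29 in controls and at 20.2%, 20.7% and 24.9% in L-RalyKO. Both ratios lay apart between the groups, the first lower and the second higher in L-RalyKO. Cyp2c44 over Cyp2c37, a called gene over another of the opposite direction, was at 85.3%, 108% and 114% in controls and at 154%, 169% and 161% in L-RalyKO. Cyp2c54 over Cyp2c50 overlapped between groups, at 31.8%, 37.9% and 33.7% against 34.9%, 36.3% and 34.9%. Since these values are not per length, a ratio here compares groups and not the abundance of 2 genes.

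The summed value of the 10 members was 4400, 4248 and 4161 in controls and 4236, 4010 and 3800 in L-RalyKO. L-RalyKO 1 lay within the control range and the other two L-RalyKO livers below it. The means were 4270 ± 121 and 4015 ± 218 (SD, n = 3 each), 94.0% of control (two-sided exact permutation test, p = 0.2, where 3 livers against 3 allow no p under 0.1). As a share of all reads the members took 0.454%, 0.428% and 0.415% in controls and 0.412%, 0.399% and 0.380% in L-RalyKO. On that scale, without the scaling factors, every L-RalyKO liver was below every control (exact permutation p = 0.1, the smallest the design allows). The difference of -254 in the sum was -147 without L-RalyKO 3 and -365 without L-RalyKO 1, and it was -57.2 without Cyp2c29, which made up most of it. Over the 5 members with at most 10% of their 50-base words shared, the difference was -49.2, or 98.2% of control (exact permutation p = 0.7). With so few livers the test can neither show nor exclude a difference in the sum.

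The partners of P450 enzymes were examined as a list of electron donors and haem synthesis genes, 13 in the table and all tested. One of them rose (7.69%, beside the 6.55% of all tested genes called in either direction) and none fell in limma, edgeR or DESeq2, with a median log2 fold change of -0.01. The one was Por, NADPH-cytochrome P450 reductase, which passes electrons to every member. It was at 546, 631 and 672 in controls and at 948, 966 and 874 in L-RalyKO. All L-RalyKO livers were above all controls (log2 fold change 0.60, SE 0.0813, adjusted p = 0.00531, limma), and the call held in all 16 alternatives.

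Of the transcription factors known to act on Cyp2c genes, 32 were tested, of which 3 rose and 2 fell (15.6% called, where 6.55% of all tested genes were), with a median log2 fold change of 0.00. EdgeR called 4 higher and 5 lower in this list, against 3.39% and 3.38% of all tested genes. DESeq2 called 4 higher and 6 lower, against 4.67% and 4.72%. CAR itself (Nr1i3) was at 160, 177 and 157 in controls and at 161, 164 and 163 in L-RalyKO (log2 fold change -0.01, adjusted p = 0.916, limma). PXR (Nr1i2) was at 97.2, 89.6 and 94.9 in controls and at 116, 119 and 119 in L-RalyKO (0.33, SE 0.0483, adjusted p = 0.00725, limma). The groups overlapped for CAR and lay apart for PXR.

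Hnf4a, the hepatocyte factor, was at 520, 542 and 680 in controls and at 900, 809 and 829 in L-RalyKO (log2 fold change 0.55, SE 0.0987, adjusted p = 0.0155, limma). All L-RalyKO livers were above all controls, and the adjusted p in limma was 0.0510 without control 1, 0.0507 without control 2 and 0.0614 without L-RalyKO 1. Foxa2, a forkhead factor of liver, rose from 14.6 ± 1.79 to 27.7 ± 5.91 (SD, n = 3 each; log2 fold change 0.86, adjusted p = 0.0126, limma), and without control 1 its adjusted p was 0.0501. Tcf7l2, a factor of the Wnt pathway, fell from 13.5 ± 0.524 to 9.67 ± 0.379 (SD, n = 3 each; log2 fold change -0.45, adjusted p = 0.00783, limma). Stat5b, which relays growth hormone in liver and is named here after its values were seen, was the second factor that fell, from 63.3 ± 5.90 to 49.3 ± 3.46 (SD, n = 3 each; log2 fold change -0.35, adjusted p = 0.0346, limma), a call that held in 10 of 16 alternatives, with adjusted p values up to 0.110.

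Of 27 tested genes outside the family that are known targets of CAR and PXR, 4 rose and 4 fell (29.6%, against 6.55% of all tested genes), with a median of -0.06 on the log2 scale. Like the members, this list had no common direction. Cyp2b9, a P450 gene higher in female liver, fell and was at 65.2, 48.9 and 36.3 in controls and at 0.873, 2.15 and 3.18 in L-RalyKO (log2 fold change -4.10, adjusted p = 0.000406, limma). Its neighbour Cyp2b13 was at 2.12, 1.26 and 2.97 in controls and at 0, 0.0290 and 0.0526 in L-RalyKO, which is at most 2 reads. It passed the minimum mean value only through the controls, so no p is given for it, and without it 3 genes of this list fell. Gstm3, a glutathione transferase (1.16, adjusted p = 0.00312, limma), and Sult1d1, a sulfotransferase (0.57, adjusted p = 0.00241, limma), rose. The other 19 genes of this list did not pass. They include Cyp2b10 (-0.47, adjusted p = 0.438, limma) and Cyp3a11 (-0.19, adjusted p = 0.458, limma), both with overlapping groups.

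Genes of arachidonic acid supply and epoxide breakdown surround the reaction of most members, and 23 of them were tested. Of these 4 rose and 1 fell (21.7%, against 6.55% of all tested genes), with a median of 0.12 on the log2 scale. At an unadjusted p under 0.05 in limma 6 were higher and 3 lower, against 11.8% and 10.9% of all tested genes. Fads2 and Fads1, the desaturases that make arachidonic acid, rose from 296 ± 8.13 to 462 ± 18.5 and from 405 ± 23.8 to 558 ± 19 (SD, n = 3 each; log2 fold changes 0.64 and 0.46, adjusted p = 0.000537 and 0.00372, limma). Acsl4, which attaches arachidonic acid to coenzyme A, rose (0.45, adjusted p = 0.00720, limma). Cyp4a14, a fatty acid hydroxylase, fell from 918 ± 101 to 567 ± 90.9 (SD, n = 3 each; -0.70, adjusted p = 0.0138, limma). Elovl5, an elongase of the same list, was lower in every L-RalyKO liver than in any control but did not pass (-0.44, adjusted p = 0.0552, limma). It passed in 3 of 16 alternatives. Ephx2, the soluble hydrolase that opens the epoxides, was between 1038 and 1126 in controls and between 1040 and 1048 in L-RalyKO (-0.03, adjusted p = 0.772, limma).

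Around Cyp2c70, 17 genes of bile acid synthesis were tested. Cyp27a1, the mitochondrial sterol hydroxylase (0.33, adjusted p = 0.0190, limma), and Cyp7b1 (0.43, adjusted p = 0.0377, limma), which acts after it, rose, and Cyp46a1, a sterol hydroxylase best known from brain, fell (-0.93, adjusted p = 0.0185, limma). The calls were 17.6% of the list, against 6.55% of all tested genes, and its median was 0.00. EdgeR called 1 higher and 1 lower in it, against 3.39% and 3.38% of all tested genes. DESeq2 called 2 higher and 4 lower, against 4.67% and 4.72%. All 3 calls were lost in some of the alternatives. Of the other P450 genes outside Cyp2c, 53 were tested, of which 4 rose and 6 fell (18.9%, with the same background of 6.55%). The 6 and the 18.9% include Cyp2b13, which passed the minimum mean value only through the controls. Without it calls still went in both directions in this list.

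**Figure D5:**
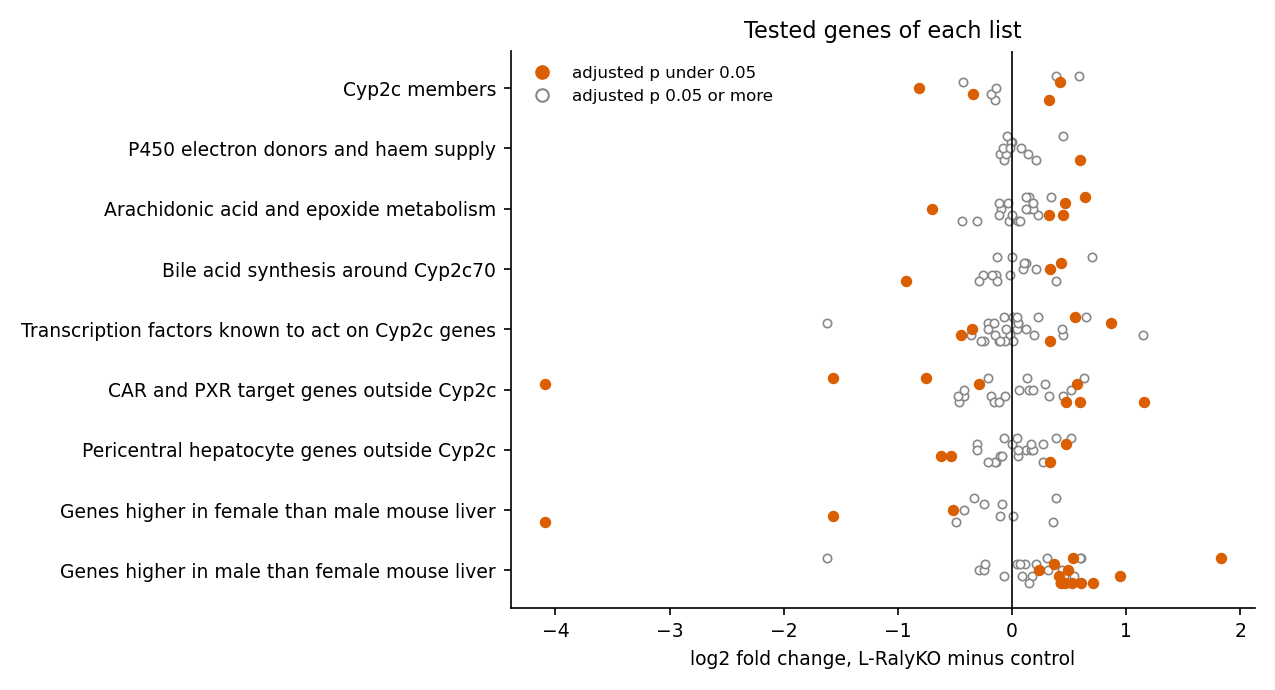
Log2 fold change (L-RalyKO minus control, limma) of every tested gene of the Cyp2c members and of 8 related lists, 1 point per gene, filled where the adjusted p was under 0.05. The members spread from -0.81 to 0.59, the genes known to be higher in male liver lie mostly to the right with 12 filled points, and the filled points of those higher in female liver lie to the left.

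Several Cyp2c genes of rodents differ between the sexes under the control of growth hormone, so genes of known sex difference were counted in these livers. Of 32 tested genes known to be higher in male liver, 12 rose in limma (37.5%, against 3.36% of all tested genes) and none fell. The other 20 did not pass, and the median over all 32 was 0.39 on the log2 scale. At an unadjusted p under 0.05 in limma 2 were lower, against 10.9% of all tested genes, and DESeq2 called 1 lower, against 4.72%. The 2 in limma were Bcl6 (log2 fold change -1.62, adjusted p = 0.0654, limma) and Cyp2u1 (-0.29, adjusted p = 0.0907, limma). For both, every L-RalyKO liver was below every control. Selenbp2, a selenium-binding protein, rose from 117 ± 35.9 to 410 ± 75 (SD, n = 3 each; 1.83, adjusted p = 0.00216, limma). Gstp1, a glutathione transferase (0.71, adjusted p = 0.00196, limma), Ugt2b1, a glucuronosyltransferase (0.60, adjusted p = 0.00255, limma), and C6, a complement component (0.49, adjusted p = 0.00587, limma), rose as well. Of 12 tested genes higher in female liver none rose and 3 fell (25%, against 3.19% of all tested genes called lower), among them Cyp2b9 and Cyp2b13, with a median of -0.29. Cyp2b13 was tested only through its values in controls, and without it 2 fell. Beside Cyp2b9, Abcd2 fell (log2 fold change -0.52, adjusted p = 0.0475, limma). The call of Abcd2 held in 7 of 16 alternatives, with adjusted p values up to 0.124. In this list 1 was higher at an unadjusted p under 0.05 in limma, against 11.8% of all tested genes, but 0 in edgeR and DESeq2. Whether this moves with the Cyp2c genes across livers was not tested.

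Position within the liver lobule also sets Cyp2c levels, since several members are known from hepatocytes near the central vein. Of 24 pericentral genes outside the family 2 rose and 2 fell (16.7%, against 6.55% of all tested genes), with a median log2 fold change of 0.05. Tbx3 (-0.62, adjusted p = 0.00429, limma) and Lgr5 (-0.53, adjusted p = 0.0441, limma), both Wnt targets, fell, and Cyp1a2, a P450 of aromatic amines, rose (0.48, adjusted p = 0.0441, limma) with Cyp27a1. The call of Lgr5 held in 7 of 15 alternatives, with adjusted p values up to 0.124, and that of Cyp1a2 in 8 of 16, up to 0.141. Glul, glutamine synthetase of the innermost cells, was between 955 and 1025 in controls and between 807 and 980 in L-RalyKO (-0.14, adjusted p = 0.322, limma). Of 21 periportal genes Pck1, of glucose synthesis, was the 1 that passed the test in limma (0.78, adjusted p = 0.00312), or 4.76% against 6.55% of all tested genes. DESeq2 called 5 of them higher and 1 lower (4.67% and 4.72% of all tested genes), and at an unadjusted p under 0.05 in limma 9 were higher and 1 lower (11.8% and 10.9% of all tested genes).

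Inflammation is known to lower many P450 transcripts, and 6 of 25 acute phase genes rose (24%, against 3.36% of all tested genes called higher) and none fell, with a median log2 fold change of 0.15. None was lower at an unadjusted p under 0.05 in limma, or in edgeR or DESeq2. They included Mt1, a metallothionein (1.0, adjusted p = 0.00343, limma), Saa1, serum amyloid A (0.79, adjusted p = 0.0118, limma), Socs3, an inhibitor of cytokine signals (1.51, adjusted p = 0.0214, limma), and Orm1, orosomucoid (0.25, adjusted p = 0.0173, limma). Socs3 held in 9 of 16 alternatives and Orm1 in 11, with adjusted p values up to 0.0782 and 0.0607. Their part in the Cyp2c values was not tested.

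Markers of cell types were counted for the same reason. Of 16 hepatocyte markers 2 rose and none fell in limma, while 6 were higher at an unadjusted p under 0.05 and DESeq2 called 5 higher, none being lower by either. Over all tested genes 3.36%, 11.8% and 4.67% were higher by these 3 measures, against 12.5% of this list in limma. Their summed value was between 107823 and 117643 in controls and between 120813 and 121860 in L-RalyKO, and albumin (Alb) was between 63858 and 71897 in every liver. No tested marker of Kupffer cells (12), endothelial cells (13), stellate cells (13), cholangiocytes (4) or leukocytes (1) passed the test in limma or edgeR. At an unadjusted p under 0.05 in limma 3 of them were higher and 2 lower, against 11.8% and 10.9% of all tested genes. DESeq2 called 2 higher, against 4.67%. The summed Kupffer cell markers were between 253 and 371 in controls and between 257 and 331 in L-RalyKO, and those of endothelial cells between 394 and 397 and between 344 and 446. The stellate cell markers summed to between 366 and 401 and between 358 and 451, and the cholangiocyte markers to between 45.6 and 49.5 and between 43.7 and 52.9. Of the adipocyte and pancreas markers 3 were tested and 1, Cfd, fell (a call that held in 9 of 15 alternatives, for a gene that passed the minimum mean value only through the controls), while Cpa1, Prss1 and Pnlip had no read in any liver.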

How the data were processed

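RNA-seq livers of 3 L-RalyKO and 3 control mice were used. The deposited values are a signal that the authors had normalised, namely reads of a gene divided by the effective library size. All of them (100% in each library, tolerance 0.01) were whole multiples of 1 read, and the scaling equalled TMM factors recomputed with edgeR. The methods give paired reads of 150 bases aligned with TopHat, the submitters' processing notes name mm9 and Cufflinks 2.0.2, and the counting tool is not given in the sources used here. No deposited column was left unused (0). Columns were matched to livers by virus and number.

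Values were compared on the scale of log2(value + 1) by limma 3.58.1 (R 4.3.3) with an intensity trend, for genes with a mean of at least 1. Adjustment followed Benjamini and Hochberg over all 11580 of them. The 16 alternatives included edgeR 4.0.16 (783 genes called) and DESeq2 1.42.0 on the reads recovered from the values. On simulated L-RalyKO and control livers (11583 genes tested) limma called 48.0% of genes changed 1.5-fold and 95.9% of those changed 2-fold, and 5.08% of its calls were false. The simulated livers were independent and every gene had the same dispersion, unlike the real livers. These rates therefore need not hold for the real comparison.

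The members, the 18 gene lists, the tests and the naming rule were chosen with earlier results of these data known. All members were named, and from each list up to 4 genes with the smallest adjusted p under 0.05, defining genes (Alb, Glul, Nr1i3, Nr1i2, Por, Ephx2, Raly) and the 5 genes most like Cyp2c29. Stat5b, Cfd, Cyp2b10, Cyp3a11, Bcl6, Cyp2u1, Elovl5 and the genes listed at 0 were named outside that rule. Sequence comparisons used GENCODE vM1 on NCBIM37 and RefSeq promoters of GRCm38.p6 with Biopython 1.88.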

Additional observations from a re-analysis of the deposited data

How the results depend on the processing

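Over the 16 alternatives no member changed sign. Of 159 log2 fold changes of members, 135 kept their side of the threshold, 21 no longer passed and 3 newly passed. Members higher in L-RalyKO numbered 1 without a filter on low values and 1 without an intensity trend, and between 0 and 2 with 1 liver left out. Members lower numbered 1 with edgeR, 0 without a filter and 0 without a trend (limma, where 4 members were lower at an unadjusted p under 0.05 with the filter and the trend), and between 0 and 2 with 1 liver left out. DESeq2 called 3 higher and 2 lower. Over all genes, 484 were called without a filter, and between 335 (without L-RalyKO 1) and 812 (without control 3) with 1 liver left out. With 1 liver left out the log2 fold change of Ephx2 ran from -0.054 to 0.0049, turning without control 1, and that of Nr1i3 from -0.046 to 0.038, turning without control 2. The difference in the summed value lay between -365 (without L-RalyKO 1) and -147 (without L-RalyKO 3) with 1 liver left out, and was -357 with total count scaling. Over the 5 members with at most 10% of their 50-base words shared it was -49.2. The cause was not tested. Deviations of same-numbered livers had correlations of 0.0664, -0.0238 and 0.0196. With 3 livers per group these values cannot show whether the numbers pair the mice. With the replicate block 2 members were higher and 2 lower, 704 genes were called in all, and the summed value had an exact p of 0.25. Cyp2c39 had the fewest reads of the members (57 to 135 per liver).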
